A study of Rattus norvegicus with 30 samples.

Results

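The genes described here code for mitochondrial ribosomal proteins and were followed in primary rat hepatocytes given acetaminophen, an analgesic whose overdose injures the liver. They were all genes whose annotated symbol begins with Mrpl or Mrps and a digit, with the probe set of highest mean log2 signal standing for each gene. There were 73 of them among the 14217 genes named on the array, 46 with an Mrpl and 27 with an Mrps symbol. All 73 passed the filter that kept the brightest 60% of genes, 8531 genes in all.

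Frozen hepatocytes of male Sprague Dawley rats were thawed, plated on collagen under Matrigel and dosed on the third day of culture. The 6 groups were vehicle (1% DMSO), 500 µM and 5000 µM acetaminophen at 48 h after dosing, and the same 3 doses at 24 h, with 5 separately cultured wells and 1 array per well in each group. The cells were bought frozen, and how many animals they came from is not given in the sources used here, and the p-values below rest on the variation from well to well. Hepatocyte markers were bright in every array: the 9 on the array of 10 listed, among them Alb and Apoa1, summed to between 366500 and 486100 signal units, and all 9 were among the genes tested.

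Mitochondrial ribosomes translate the few proteins encoded by the mitochondrial genome, all of them subunits of the respiratory chain and the ATP synthase. Their ribosomal RNA comes from the mitochondrial genome, while every ribosomal protein is encoded in the nucleus, made in the cytosol and imported. Some of the proteins descend from those of bacterial ribosomes and others are found only in mitochondria. Reactive metabolites of acetaminophen bind mitochondrial proteins in hepatocytes, and mitochondrial damage is a known part of its toxicity.

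RNA quality has to be held beside these genes. The measure was taken from β-actin, whose signal in the 3' control probe set was divided by that in the 5' one on the log2 scale, which is higher where RNA or labelled product is shorter. Vehicle arrays averaged 1.24 ± 0.11 at 48 h, 500 µM arrays 1.86 ± 0.12 and 5000 µM arrays 1.21 ± 0.05. The averages at 24 h were 1.78 ± 0.24 for vehicle, 1.61 ± 0.33 for 500 µM and 1.37 ± 0.22 for 5000 µM (SD, n = 5 each). Of 7 pairs of groups 3 differed by a two-sided exact permutation test: 500 µM was higher by 0.62 than vehicle at 48 h, 5000 µM lower than 500 µM at 48 h (-0.65), and vehicle lower at 48 h than at 24 h (-0.53), each at an exact adjusted p = 0.0185. The largest gap in the ratio, between 1.544 and 1.735, left 0 of 5 vehicle, 5 of 5 500 µM and 0 of 5 5000 µM arrays above it at 48 h, and 3, 3 and 1 of 5 at 24 h. The sample titles carry a running code that passes through the 6 groups in 5 rounds, and what it stands for is not given in the sources used here. At 24 h the arrays above the gap were those of rounds 1 to 3 in vehicle and at 500 µM, and of round 1 at 5000 µM. Counts of the 73 genes called in each comparison are given as fitted on the groups alone and again with the ratio as a covariate in the same limma model.

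The promoters of 4 genes that carried the largest changes are shown because they show what the start of such a gene looks like and how its motifs sit. RefSeq windows of the rat assembly GRCr8, from 250 bases before to 50 bases after the start, were found for 59 of the 73 genes. Mrps6 and Mrpl49 had the largest rises at 5000 µM, Mrpl39 the largest fall at 5000 µM and 48 h, and Mrps18c the largest fall at 500 µM and 48 h. Capitals mark matches to the 4 motifs searched on both strands, which were GCGCATGC (NRF1), CCGGAAG (ETS factors such as GABPA), AAGATGGC (YY1) and CACGTG (E-box). The windows are chr11:44778417-44778716 on the plus strand for Mrps6, and on the minus strand chr1:212779278-212779577 for Mrpl49, chr11:37281495-37281794 for Mrpl39 and chr14:9122857-9123156 for Mrps18c, each printed 5′ to 3′ along the gene.
Mrps6: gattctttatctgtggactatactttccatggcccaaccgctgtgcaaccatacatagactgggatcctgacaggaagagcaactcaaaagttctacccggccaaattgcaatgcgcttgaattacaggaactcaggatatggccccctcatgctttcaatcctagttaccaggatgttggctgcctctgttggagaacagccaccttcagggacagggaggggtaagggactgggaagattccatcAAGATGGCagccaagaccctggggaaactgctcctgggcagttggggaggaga
Mrpl49: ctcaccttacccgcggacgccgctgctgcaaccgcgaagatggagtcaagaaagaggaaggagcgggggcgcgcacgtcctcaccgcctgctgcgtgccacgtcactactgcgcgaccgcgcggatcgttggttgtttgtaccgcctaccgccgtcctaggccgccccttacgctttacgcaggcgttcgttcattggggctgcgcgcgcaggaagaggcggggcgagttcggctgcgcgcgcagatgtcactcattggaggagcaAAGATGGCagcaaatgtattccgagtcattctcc
Mrpl39: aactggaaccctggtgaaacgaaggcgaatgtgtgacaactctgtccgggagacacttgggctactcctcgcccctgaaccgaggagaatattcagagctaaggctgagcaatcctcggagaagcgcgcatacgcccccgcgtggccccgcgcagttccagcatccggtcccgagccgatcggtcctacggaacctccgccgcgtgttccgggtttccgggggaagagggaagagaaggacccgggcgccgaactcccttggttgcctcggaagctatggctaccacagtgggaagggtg
Mrps18c: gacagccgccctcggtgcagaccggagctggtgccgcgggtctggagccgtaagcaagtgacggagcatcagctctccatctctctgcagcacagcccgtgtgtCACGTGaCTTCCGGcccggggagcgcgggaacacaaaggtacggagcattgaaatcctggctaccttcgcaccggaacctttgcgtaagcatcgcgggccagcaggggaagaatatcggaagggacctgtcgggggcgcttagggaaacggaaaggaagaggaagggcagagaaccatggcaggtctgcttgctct
The YY1 match began at base 248 of the Mrps6 window and at base 267 of the Mrpl49 window, where base 251 is the transcript start on which the window is built. Mrps18c held an E-box at base 105 and an ETS match on the other strand at base 112, and no motif matched in the Mrpl39 window.

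Each of the 4 motifs stood in a larger share of the 59 windows than of all 33469 windows of the table, with no test made. The ETS motif stood in 20 of 59 (33.9%), against 8.75% of all windows, and the YY1 motif in 14 of 59 (23.7%), against 3.17%. The NRF1 motif stood in 5 (8.48%), against 2.47%, and the E-box in 6 (10.2%), against 6.42%. At least 1 of the 4 stood in 33 windows (55.9%), against 18.5% of all. A match is a run of letters, not a measured binding site. The YY1 motif holds the letters ATG, and whether its matches near the start are start codons was not tested. The windows of the whole table were not restricted to the genes tested here.

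At 5000 µM and 24 h single genes moved in both directions while the centre of the family stayed near 0. Of the 73 genes 22 rose and 10 fell at a Benjamini-Hochberg adjusted p under 0.05 in limma, or 43.8%, where 38.1% of all 8531 genes were called. Read by direction, 30.1% rose, against 18.6% of all genes, and 13.7% fell, against 19.6%. The median change was 0.04 on the log2 scale, against 0.00 (-0.0027) over all genes, and no member moved 2-fold. With the actin ratio as a covariate 14 rose and 10 fell, where 30.5% of all genes were called. With the arrays below the gap alone, 4 at 5000 µM and 2 of vehicle, 12 rose and 8 fell, where 28.7% of all genes were called.

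Mrps6, a small-subunit protein with a bacterial homologue, rose most. Its signal was 7796, 7588, 8704, 8125 and 7240 in the 5000 µM wells at 24 h, against 4417, 5175, 4473, 4689 and 4597 in vehicle wells. All 5 treated wells lay above all 5 vehicle wells, a log2 change of 0.76 ± 0.07 (SE, adjusted p = 9.26e-11 in limma). Mrpl49, a large-subunit protein found only in mitochondria, had 6547, 6568, 7855, 7521 and 6979 in 5000 µM wells, against 4434, 5036, 5006, 4913 and 5475 in vehicle wells. These groups did not overlap either, with a change of 0.51 ± 0.06 (adjusted p = 2.89e-08). With the covariate the changes of Mrps6 and Mrpl49 were 0.75 and 0.43, both still called.

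The next 8 rises were those of Mrps33 (0.46 ± 0.07), Mrpl41 (0.41), Mrpl14 (0.39), Mrpl54 (0.36), Mrps22 (0.32), Mrps17 (0.32), Mrpl42 (0.32) and Mrpl28 (0.30). They mix both subunits and both ancestries: Mrpl14, Mrpl28 and Mrps17 have bacterial homologues, and the other 5 are found only in mitochondria. Mrps22, mutated in a human mitochondrial disease, was at 0.14 with the covariate (adjusted p = 0.231) and no longer called.

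Mrpl37, a large-subunit protein found only in mitochondria, fell most at this dose and time. It had 2895, 2809, 2856, 2573 and 2483 in 5000 µM wells, against 3402, 3695, 3614, 3365 and 3640 in vehicle wells. Every treated well lay below every vehicle well, a change of -0.38 ± 0.07 (adjusted p = 3.19e-05 in limma). Mrpl38, from the central protuberance of the large subunit, had 895, 638, 784, 753 and 754, against 948, 1037, 1028, 999 and 804. Those groups overlapped, and the change of -0.34 ± 0.14 just passed the test (adjusted p = 0.0489), though not with the covariate (-0.30, adjusted p = 0.17). Mrps27 (-0.32), Mrpl40 (-0.31), Mrps5 (-0.30), Mrpl47 (-0.27), Mrps35 (-0.24), Mrps16 (-0.19), Mrpl12 (-0.16) and Mrpl15 (-0.15) also fell. Mrpl12, which in human cells binds the mitochondrial RNA polymerase, kept its fall with the covariate (-0.21), but the mean of its probe sets gave 0.08.

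At 48 h the same dose gave 9 rises and 15 falls, 32.9% of the 73 genes, where 32.6% of all genes were called. The median change was -0.06, against -0.01 over all genes. With the covariate the counts were 11 and 18, where 35.5% of all genes were called, and all 24 genes called without it were called again in the same direction. Vehicle and 5000 µM arrays had like actin ratios at this time, all below the gap.

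**Figure D1:**
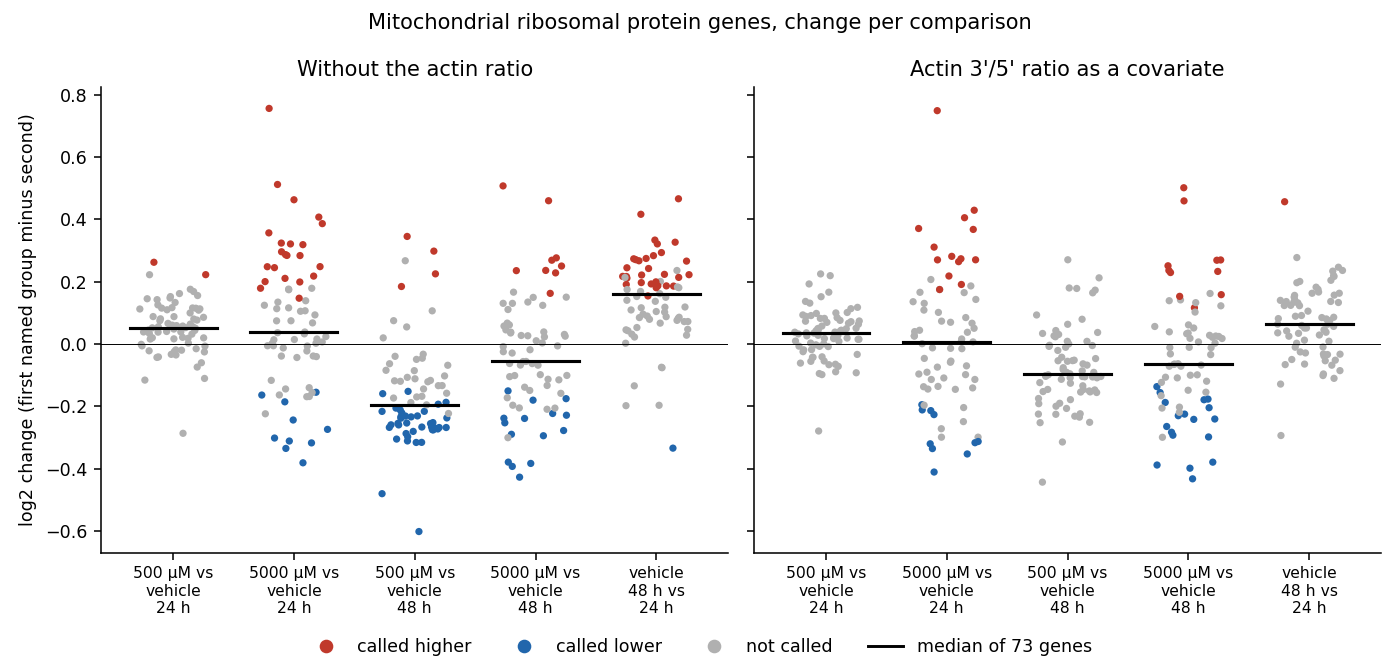
Log2 change of each of the 73 mitochondrial ribosomal protein genes (points) in 5 comparisons, fitted on the groups alone (left) and with the actin 3'/5' ratio as a covariate (right). Black bars are medians and colours mark calls at adjusted p under 0.05. At 500 µM and 48 h the 39 falls on the left are 0 on the right, where the median is -0.10. Over all genes the share called there went from 42.6% to 3.97%, and dose and ratio cannot be told apart. At 5000 µM calls remain in both panels.

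Mrpl49 led the rises at 48 h, with 7049, 7599, 7130, 7079 and 7479 in 5000 µM wells, against 4949, 5235, 5029, 5086 and 5257 in vehicle wells. The groups lay well apart, a change of 0.51 ± 0.06 (adjusted p = 4.02e-08). Mrps6 had 8634, 9996, 8949, 8391 and 8418, against 6075, 5651, 6366, 6992 and 7255. Again no well overlapped, with a change of 0.46 ± 0.07 (adjusted p = 1.58e-06). The other 7 rises were those of Mrps33 (0.28), Mrpl41 (0.27), Mrpl54 (0.25), Mrpl42 (0.24), Mrpl51 (0.24), Mrpl28 (0.23) and Mrpl16 (0.16).

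The deepest fall at 48 h was that of Mrpl39, a large-subunit protein found only in mitochondria. Its 5000 µM wells had 2583, 2779, 2592, 2641 and 2711, against 3409, 3418, 3627, 3491 and 3972 in vehicle wells. The change was -0.43 ± 0.07 (adjusted p = 4.71e-06) and the groups did not overlap. Mrpl47, with 2287, 2473, 2580, 2528 and 2331, against 2811, 3123, 2905, 3625 and 3632, fell by 0.39 (adjusted p = 2.94e-04), also without overlap. Further falls were those of Mrpl45 (-0.38), which in human cells lies at the exit tunnel near the inner membrane, Mrpl40 (-0.38), Mrps30 (-0.29), Mrpl15 (-0.29), Mrps35 (-0.28), Mrpl19 (-0.25), Mrps16 (-0.24) and Mrps31 (-0.24).

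The comparisons at 48 h and at 24 h share no array, and the genes called at 5000 µM were partly the same. At both times 8 genes rose (Mrpl16, Mrpl28, Mrpl41, Mrpl42, Mrpl49, Mrpl54, Mrps33 and Mrps6) and 6 fell (Mrpl12, Mrpl15, Mrpl40, Mrpl47, Mrps16 and Mrps35). These 14 were 58.3% of the 24 genes called at 48 h and 43.8% of the 32 called at 24 h, and all 14 were called at both times with the covariate too. Over all 8531 genes the calls in the same direction at both times were 52.8% of those at 48 h and 45.1% of those at 24 h, near the shares of the family. A single gene, Mrpl36, was called in opposite directions, with 9 genes called at 48 h alone, 17 at 24 h alone and 32 at neither.

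**Figure D2:**
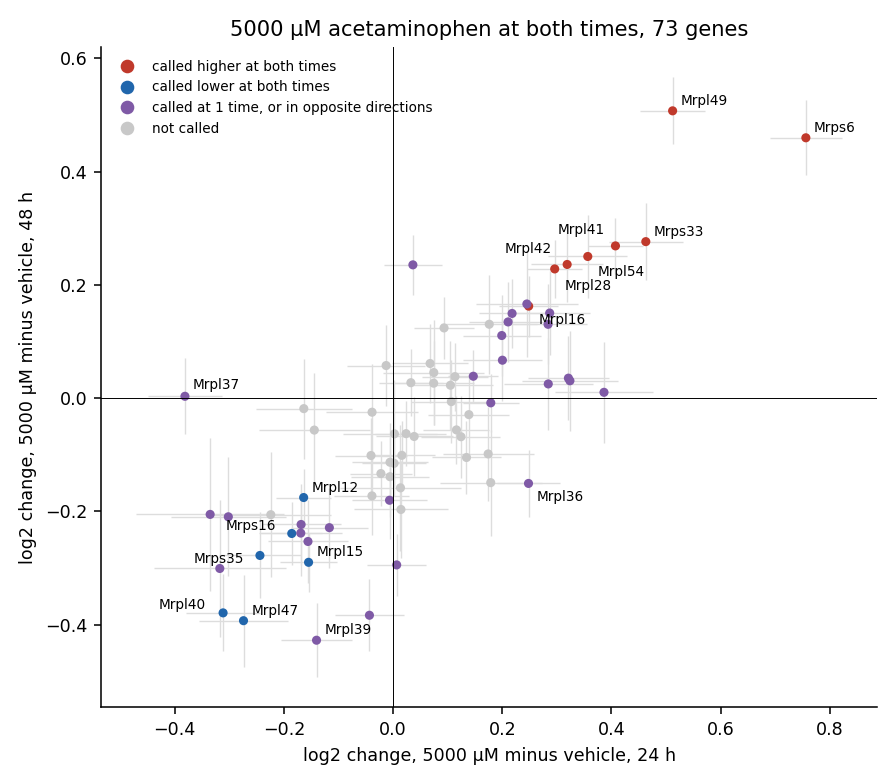
Log2 change at 5000 µM against vehicle at 48 h (vertical) and at 24 h (horizontal) for the 73 genes, with standard errors as grey bars. Mrps6 and Mrpl49 stand apart at the upper right, and Mrpl37 and Mrpl39 fell at 1 time each.

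The difference between the 5000 µM effects at 48 h and at 24 h was itself called for 7 genes, 1 higher and 6 lower, or 9.59%, where 16.4% of all genes were called. Mrpl37 was higher by 0.38 (adjusted p = 0.00518), with an effect of 0.00 (0.0033) at 48 h and -0.38 at 24 h. Mrpl36, a large-subunit protein with a bacterial homologue, was lower by 0.40 (adjusted p = 0.00104). Its 5000 µM wells at 48 h had 4553, 4319, 4181, 4231 and 4025, against 4712, 4809, 4824, 4644 and 4649 in vehicle wells, a fall without overlap (-0.15, adjusted p = 0.0469). At 24 h they had 5469, 5369, 5801, 5652 and 5251, against 3970, 4365, 4814, 5105 and 5025, a rise without overlap (0.25, adjusted p = 0.00101). The other 5 were Mrps6, Mrpl39, Mrpl14, Mrpl45 and Mrps30. With the covariate Mrpl37, Mrpl36 and Mrps30 stayed called, where 9.62% of all genes were.

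**Figure D3:**
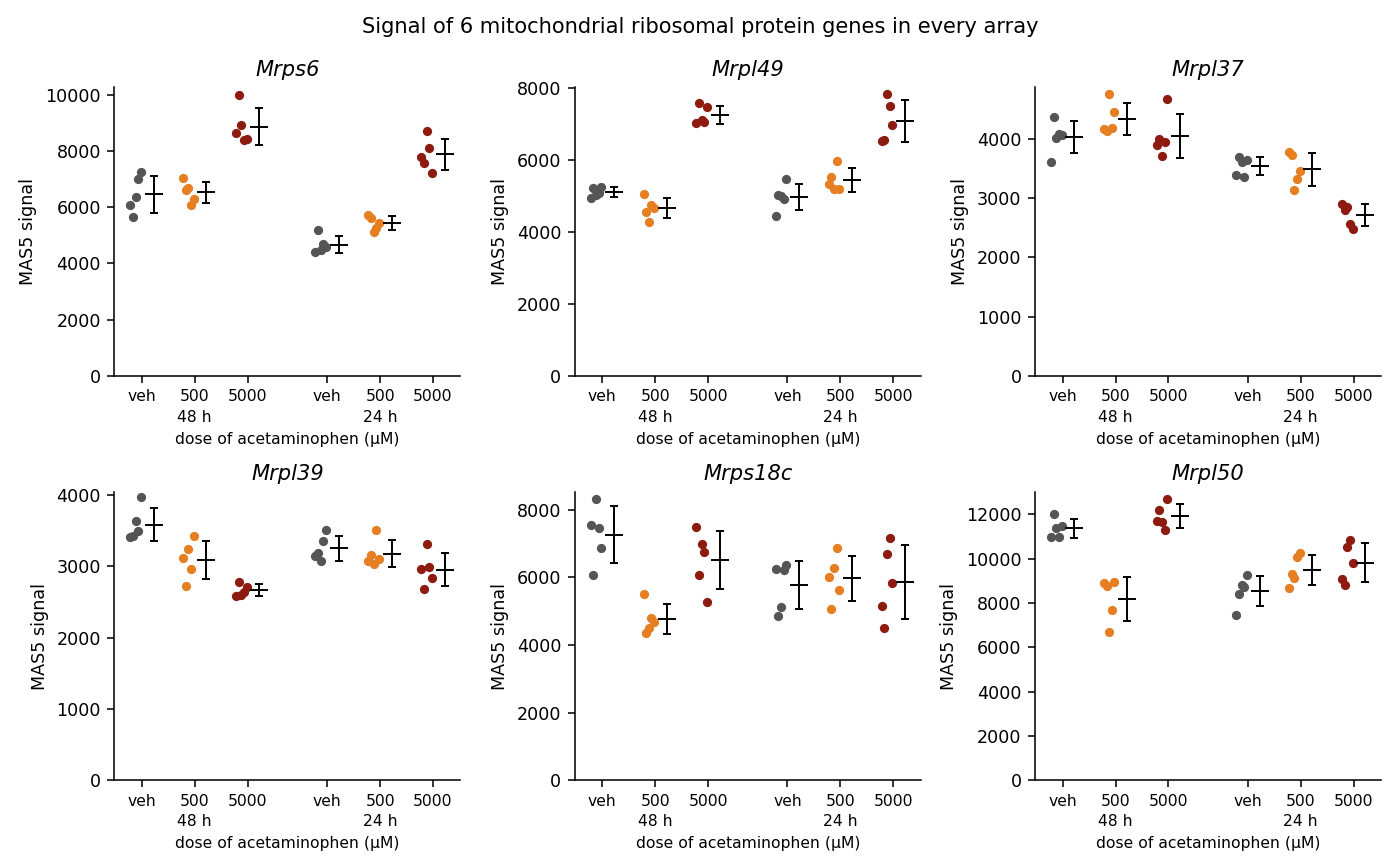
MAS5 signal of 6 genes in every array (points) by dose and time, with the group mean and SD (bars, n = 5). Mrps6 and Mrpl49 are higher at 5000 µM at both times, Mrpl37 is lower at 24 h only, Mrpl39 at 48 h, and Mrps18c and Mrpl50 are lower at 500 µM and 48 h.

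At 500 µM and 24 h little moved. Of the 73 genes 2 rose and 0 fell, 2.74%, where 2.86% of all genes were called, and 11 had an unadjusted p under 0.05 in limma, 10 of them higher. Mrps33, a small-subunit protein found only in mitochondria, had 10011, 10350, 9564, 10685 and 11346 in 500 µM wells, against 8106, 8346, 8597, 9449 and 8807 in vehicle wells, which did not overlap (0.26 ± 0.07, adjusted p = 0.0278). Mrpl36 had 5357, 5199, 5362, 5722 and 5415, against 3970, 4365, 4814, 5105 and 5025, and did not overlap either (0.22 ± 0.06, adjusted p = 0.0313). With the covariate 0 of 73 were called, at adjusted p = 0.059 for Mrps33 and 0.0632 for Mrpl36, where 2.17% of all genes were called and 7 of the 73 had an unadjusted p under 0.05. The 2 calls also rested on single wells: without replicate 1 of the 24 h vehicle wells, or replicate 4 or 5 of the 500 µM wells, 0 of 73 passed, and without replicate 2 of the vehicle wells 1 did.

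At 500 µM and 48 h most changes of the family were below 0, and 39 genes passed the test as falls. With 39 falls and 4 rises of 73, the share called was 58.9%, where 42.6% of all genes were called. Falls made up 53.4%, against 18.6% of all genes, and rises 5.48%, against 24.0%. The median change was -0.20, against 0.01 over all genes, and 64 of 73 had a negative change. With the actin ratio as a covariate 0 of 73 were called in limma, where 3.97% of all genes were, the median was -0.10, and 12 genes were lower and 1 higher at an unadjusted p under 0.05. The treated arrays all had ratios over the gap and the vehicle arrays none, so dose and ratio cannot be told apart in this comparison.

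Mrps18c, one of 3 mitochondrial paralogues of bacterial ribosomal protein S18, fell most. It had 5510, 4352, 4510, 4808 and 4690 in 500 µM wells, against 7557, 6066, 8333, 7479 and 6877 in vehicle wells. The groups did not overlap, a change of -0.60 ± 0.11 (adjusted p = 9.95e-05), and it was -0.44 with the covariate (adjusted p = 0.101). Mrpl50, a large-subunit protein found only in mitochondria, had 8889, 8773, 6680, 7675 and 8932, against 10955, 12027, 11366, 10991 and 11473. It fell without overlap by 0.48 (adjusted p = 8.58e-06), and its change was -0.25 with the covariate (adjusted p = 0.086). The next 8 falls were those of Mrpl30 (-0.32), Mrps25 (-0.32), Mrpl20 (-0.31), Mrpl21 (-0.31), Mrpl33 (-0.30), Mrps16 (-0.29), Mrps17 (-0.28) and Mrps34 (-0.28), and the remaining 29 were smaller.

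The falls at 500 µM and 48 h spread over both subunits. Of the large-subunit proteins listed with a bacterial homologue 16 of 27 fell and 0 rose (median -0.22). Of those listed as found only in mitochondria 7 of 21 fell and 2 rose (median -0.13). In the small subunit 9 of 15 listed with a bacterial homologue fell and 1 rose (median -0.23). Of its proteins listed as found only in mitochondria 7 of 10 fell and 1 rose (median -0.22). The lists set Mrps18a and Mrps18b among the proteins found only in mitochondria, although both are paralogues of bacterial S18. Mrpl55 is listed with a bacterial homologue, although it has none. Of 5 ribosomal proteins with other symbols Aurkaip1 (-0.33) and Chchd1 (-0.33) fell. With the covariate 0 of these 5 were called in limma as well, and 1 was lower at an unadjusted p under 0.05.

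The 4 rises at 500 µM and 48 h depended on the probe set read. Mrps2, a small-subunit protein with a bacterial homologue, had 2408, 2649, 3175, 2547 and 2728 in 500 µM wells, against 2235, 1747, 2376, 2269 and 2020 in vehicle wells (0.35 ± 0.09, adjusted p = 0.00246), without overlap. Mrps27 had 1327, 1505, 2099, 1206 and 1622, against 1210.0, 1207, 1439, 1195 and 1161, with overlap (0.30 ± 0.12, adjusted p = 0.0456). Mrpl57 (0.23) and Mrpl51 (0.18) were the other 2. In a fit of every probe set, other probe sets were called lower for Mrps2 (-1.76, a dim probe set with a mean signal of 33.9), Mrps27 (-0.60 and -1.06), Mrpl57 (-0.36) and Mrpl51 (-0.35 and -0.58). The reverse held for Mrpl40, with -0.25 for the brightest probe set and 0.37 for the other, both called. Of the 18 genes with several probe sets 4 had opposite calls at 500 µM and 48 h, Mrpl40, Mrpl51, Mrpl57 and Mrps2, and in that fit the brightest probe set of Mrps27 just missed the threshold (adjusted p = 0.0562). At 5000 µM Mrps27 had opposite calls at 24 h (-0.32 and 1.25) and no gene had them at 48 h.

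**Figure D4:**
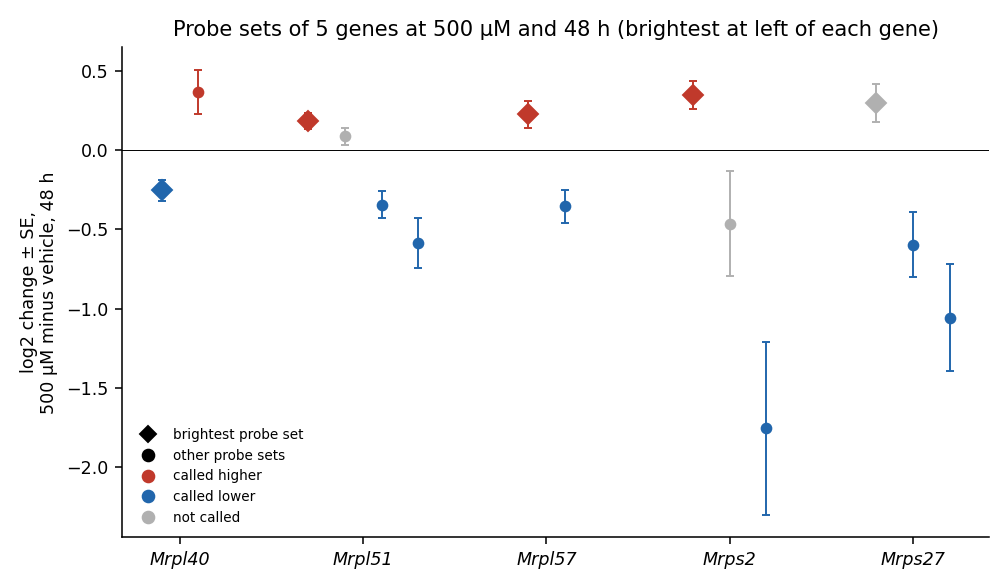
Log2 change ± SE at 500 µM against vehicle at 48 h for every probe set of 5 genes, the brightest (diamond) at the left of each gene. For Mrpl51, Mrpl57, Mrps2 and Mrps27 the brightest probe set is above 0 and others lie down to -1.76, and for Mrpl40 the order is turned.

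Between the doses the 5000 µM wells lay above the 500 µM wells at 48 h for 31 genes and below for 9, 54.8%, where 47.6% of all genes were called, with a median of 0.13. Higher calls made up 42.5%, against 19.4% of all genes, and lower calls 12.3%, against 28.2%. With the covariate 15 were higher and 8 lower, where 20.9% of all genes were called, and the median was 0.01. Mrpl49 differed most, at 0.64 ± 0.06 (adjusted p = 4.31e-10), with 0.51 under the covariate. At 48 h the actin ratios ran from 1.15 to 1.29 at 5000 µM and from 1.74 to 2.00 at 500 µM. Dose and ratio therefore cannot be told apart in this comparison either. At 24 h 12 were higher and 9 lower, 28.8%, where 31.2% of all genes were called. With the covariate 10 were higher and 12 lower, where 31.9% of all genes were called, so the direction with more calls at 24 h turned with the covariate.

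In vehicle wells alone the family was higher at 48 h than at 24 h. Of the 73 genes 30 rose and 1 fell, 42.5%, where 32.5% of all genes were called. Rises made up 41.1%, against 13.4% of all genes, and the median was 0.16, against -0.01 over all genes. With the covariate only Mrps6 was called, where 5.16% of all genes were, and the median was 0.06. The actin ratios of vehicle arrays ran from 1.09 to 1.34 at 48 h and from 1.49 to 1.99 at 24 h. Time and ratio therefore cannot be told apart here. With the arrays below the gap alone 6 rose and 1 fell, where 14.8% of all genes were called. Without replicate 1 of the 24 h vehicle wells, whose array had the lowest family median of all 30, 18 rose and 1 fell, where 27.1% of all genes were called.

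Mrps6 rose over time in vehicle wells, with 6075, 5651, 6366, 6992 and 7255 at 48 h, against 4417, 5175, 4473, 4689 and 4597 at 24 h. The times did not overlap (0.47 ± 0.07, adjusted p = 5.12e-06), and the change was 0.46 with the covariate (adjusted p = 0.00121). Mrpl50 had 10955, 12027, 11366, 10991 and 11473 at 48 h, against 7443, 8420, 8809, 8730 and 9256 at 24 h, also without overlap. Its rise of 0.42 (adjusted p = 8e-05) was 0.22 with the covariate (adjusted p = 0.105). Mrps18c (0.33), Mrps22 (0.33), Mrps25 (0.32), Mrpl22 (0.29), Mrpl27 (0.28), Mrpl14 (0.27), Mrpl17 (0.27) and Mrps16 (0.27) followed. The fall was that of Mrpl57, a large-subunit protein found only in mitochondria, with 3349, 3536, 3971, 3498 and 3481 at 48 h, against 4016, 4540, 4404, 4832 and 4701 at 24 h (-0.33 ± 0.09, adjusted p = 0.00416).

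The difference between the 500 µM effects at 48 h and at 24 h was called for 38 genes, 2 higher and 36 lower, or 52.1%, where 36.6% of all genes were called. With the covariate 0 of 73 were called in limma, where 0.0352% of all genes were, and 14 of the 73 had an unadjusted p under 0.05. Both times enter this difference with their own vehicle wells, so it holds the change of vehicle over time as well.

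The level of the family in each array was lowest in the group with the highest actin ratio, 500 µM at 48 h, and highest in vehicle at 48 h. Each gene was set to its mean over the 30 arrays and the median over the 73 genes was taken. At 48 h that median averaged 0.10 ± 0.04 in vehicle, -0.08 ± 0.03 at 500 µM and 0.05 ± 0.05 at 5000 µM, and at 24 h -0.06 ± 0.07, 0.01 ± 0.06 and 0.00 (0.0027) ± 0.09 (SD, n = 5 each). Arrays of 1 group on the 2 sides of the gap give a view inside groups. At 500 µM and 24 h the 3 arrays above the gap lay between -0.08 and -0.01 and the 2 below it at 0.06 and 0.07. At 5000 µM and 24 h the array above it read -0.03, within the range of the 4 below it, -0.12 to 0.13. In 24 h vehicle wells 3 arrays above it lay between -0.19 and -0.03, and the 2 below it at -0.04 and 0.00 (-0.0036).

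**Figure D5:**
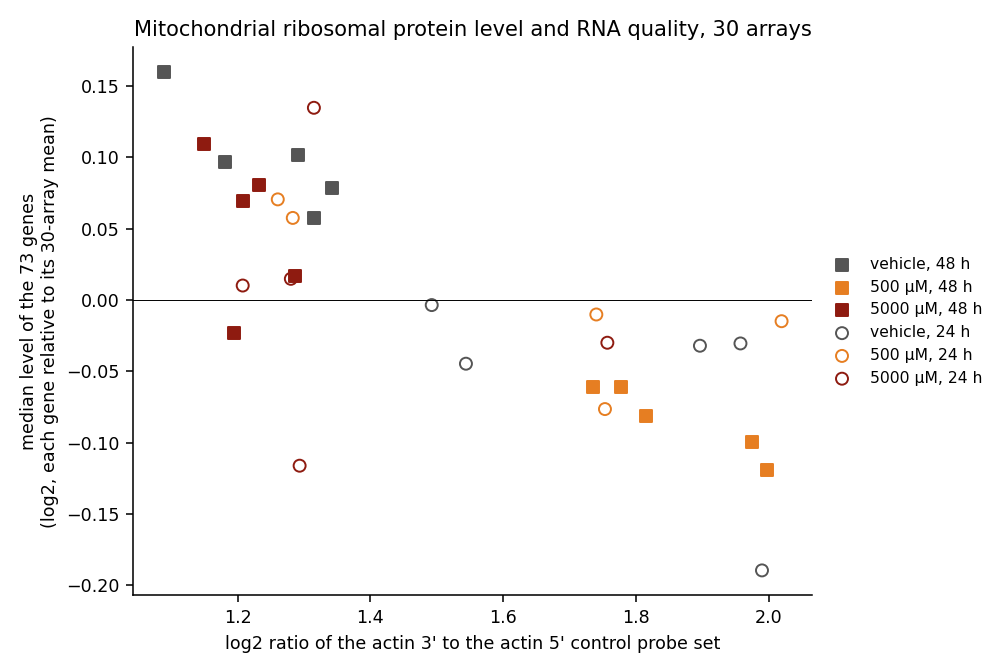
Median log2 level of the 73 genes in each array (vertical, each gene relative to its mean over 30 arrays) against the log2 actin 3'/5' ratio (horizontal), by group. All 5 arrays of 500 µM at 48 h lie at ratios from 1.74 to 2.00 and below 0, while all 5 vehicle arrays at 48 h lie at ratios from 1.09 to 1.34 and above 0.

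Within groups, 59 of 73 genes had a negative slope on the ratio in the limma model with group means and ratio. Of these 11 were called, 15.1% of the 73, where 6.82% of all genes had a called negative slope. Positive slopes were called for 0 of 73, where 11.1% of all genes had one, and 21 negative and 0 positive slopes had an unadjusted p under 0.05. The median slope was -0.15 per log2 unit of the ratio, against 0.04 over all genes. The 11 were Mrpl19, Mrpl27, Mrpl35, Mrpl43, Mrpl46, Mrpl50, Mrps18b, Mrps22, Mrps23, Mrps25 and Mrps34. The count was 5 without replicate 1 of the 5000 µM wells at 24 h and 7 without replicate 4 or 5 of the 500 µM wells at 24 h. With the rounds of the title code as a block, a fit chosen after seeing the data, 1 slope was called, a negative one. The share of all genes with a called slope is not given for the block or for the fits without an array. Whether the lower counts are particular to the family was not tested. With group means removed, the median pairwise Pearson correlation of the 73 genes over the 30 arrays was 0.26 (2628 pairs), against 0.00 (0.0018) over all pairs of tested genes, and the arrays share scaling and RNA quality.

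The 3 paralogues of S18 are given side by side, with no test between them. Mrps18a, which sits in the large subunit, rose at 5000 µM and 24 h (0.21 ± 0.07, adjusted p = 0.018 in limma) and over time in vehicle (0.20, adjusted p = 0.0302). Its rise over time was not called with the covariate. At 500 µM and 48 h Mrps18a was at -0.06. Mrps18b fell at 500 µM and 48 h (-0.21, adjusted p = 0.0199), where the covariate put it at 0.00 (0.0001). At 5000 µM Mrps18b was at -0.14 at 48 h and -0.01 at 24 h, and Mrps18c at -0.16 and 0.01, none of them called. Mrpl58, a peptidyl-tRNA hydrolase, passed in none of the 4 comparisons with vehicle, with changes from -0.14 to 0.11. Neither did Mrpl44, an RNase III-like protein mutated in a human cardiomyopathy, with changes from -0.16 to 0.06. Mrps22 rose at 5000 µM and 24 h and fell at 500 µM and 48 h (-0.27, adjusted p = 0.0162), where it was at 0.01 with the covariate.

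Other genes of mitochondrial translation are given for comparison, beside the all-gene shares called at 5000 µM of 32.6% at 48 h and 38.1% at 24 h. With the covariate those shares were 35.5% and 30.5%. Read by direction without it, 18.6% of all genes rose and 19.6% fell at 24 h. These lists are small and were not tested against all genes. At 24 h 2 of 12 tested translation factors rose and 4 fell, led by Lrpprc (-0.46), which stabilises mitochondrial mRNA, the elongation factor Gfm1 (-0.45) and the inner membrane insertase Oxa1l (0.32). With the covariate 1 rose and 3 fell at 24 h, these 3 genes among them. At 48 h 1 rose and 4 fell with and without the covariate, led by the elongation factor Tsfm (-0.39). None of the 11 tested aminoacyl-tRNA synthetases rose in limma at either time, and none had a positive change at an unadjusted p under 0.05. At 48 h 2 fell with and without the covariate (Yars2 -0.49, Hars2 -0.22). At 24 h 3 fell (Tars2 -0.60, Hars2 -0.41, Iars2 -0.34), and with the covariate Iars2 was at -0.18 and no longer called (adjusted p = 0.207).

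Of 22 assembly and rRNA modification genes 4 rose and 4 fell at 48 h, with and without the covariate. At 24 h 6 rose and 1 fell, led by Mterf3 (0.51), Mpv17l2 (0.43) and Tfb1m (0.36), and with the covariate 3 rose and 1 fell, without Tfb1m (adjusted p = 0.077). Of 16 genes of mitochondrial transcription and genome maintenance 3 rose and 3 fell at 48 h, or 3 and 4 with the covariate. At 24 h 0 rose in limma (1 at an unadjusted p under 0.05) and 5 fell, led by Polg2 (-0.56), which alone was called with the covariate (-0.47). Of 11 regulators of mitochondrial biogenesis 0 rose, with 0 at an unadjusted p under 0.05, and 4 fell at 24 h, led by Myc (-0.69), the deacetylase Sirt3 (-0.60) and the coactivator Pprc1 (-0.60). With the covariate 3 fell, and Pprc1 was not called (-0.39, adjusted p = 0.0757). At 48 h 0 rose and 3 fell with and without the covariate. Of all genes 18.6% rose and 19.6% fell at 24 h without the covariate, and these lists were not tested against them.

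The shift at 500 µM and 48 h was shared with some other families read on the same arrays. Of 73 tested nuclear-encoded subunits of oxidative phosphorylation 40 fell and 2 rose (median -0.16), and 25 rose and 0 fell in vehicle over time (median 0.13). Of 42 tested cytosolic ribosomal proteins 16 fell and 0 rose at 500 µM and 48 h (median -0.15). Of all genes 18.6% fell and 24.0% rose at 500 µM and 48 h, and 13.4% rose in vehicle over time. With the covariate these family counts were 2 falls, 2 rises over time and 0 falls. The all-gene shares called with it were 3.97% at 500 µM and 48 h and 5.16% in vehicle over time. At 5000 µM the cytosolic ribosomal proteins gave 0 rises and 9 falls at 48 h and 0 calls at 24 h, where the mitochondrial ones gave 9 and 15, and 22 and 10. The cytosolic counts at 5000 µM were the same with the covariate, and at 24 h 3 of 42 were higher at an unadjusted p under 0.05 without it and 2 lower with it. The oxidative phosphorylation subunits gave 5 rises and 7 falls at 48 h, and 10 and 12 at 24 h. Of all genes 32.6% were called at 5000 µM and 48 h and 38.1% at 24 h. With the covariate the oxidative phosphorylation subunits gave 6 and 8 at 48 h, and 4 and 11 at 24 h, where 35.5% and 30.5% of all genes were called. Not every list shifted at 500 µM and 48 h. Of 12 translation factors 1 rose and 2 fell (median -0.01), and of 11 aminoacyl-tRNA synthetases 2 rose and 1 fell (median -0.01). Of 22 assembly genes 1 rose and 3 fell (median -0.04). Of 16 transcription and maintenance genes 3 rose and 3 fell (median 0.01), and of 11 biogenesis regulators 2 rose and 0 fell (median 0.03). No test was made of the difference between families.

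Markers of other liver cells were mostly dim, but some moved with dose. The dimmest gene tested had a geometric mean signal of 469, and Pecam1, Stab2, Ptprc, Adgre1, Pdgfrb and Krt19 averaged below 200 units. The 10 stellate cell and fibroblast markers summed to between 7050 and 8639 at 5000 µM and between 7582 and 9946 at 500 µM, against 10570 to 13870 in vehicle at 48 h. At 24 h they summed to between 5757 and 8208 at 5000 µM and between 7077 and 8521 at 500 µM, against 9486 to 12000 in vehicle, most of it from Vim. The 9 Kupffer cell and leukocyte markers summed to between 20940 and 23310 at 5000 µM and between 23530 and 26040 at 500 µM, against 24480 to 28750 in vehicle at 48 h, most of it from Cd14 and Lyz2. At 24 h they summed to between 19980 and 22790 at 5000 µM and between 27510 and 32060 at 500 µM, against 23040 to 30680 in vehicle. The 7 cholangiocyte markers, nearly all of it Epcam, summed to between 12310 and 13530 at 5000 µM and between 11440 and 12160 at 500 µM, against 14140 to 15280 in vehicle at 48 h. At 24 h they summed to between 9914 and 11310 at 5000 µM and between 9333 and 11620 at 500 µM, against 9666 to 10210 in vehicle. The 8 endothelial markers summed to between 1609 and 3016 over all arrays. The stellate, Kupffer cell and cholangiocyte sums rest on a few bright genes, while Cd163, Lrat and Krt7 averaged 78.9, 48.0 and 13.4 units. These sums need not measure the amount of a cell type. The part of these markers in the changes was not tested. Fewer cells of a type, less RNA per cell and signal from other cells, hepatocytes included, cannot be told apart on these arrays.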

How the data were processed

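RNA of 30 wells of primary rat hepatocytes was read on Affymetrix Rat 230 2.0 arrays, 5 per dose and time. The deposited values are MAS5 signals on a linear intensity scale, per the submitters' processing notes, with no version given. The 2% trimmed mean of every array lay between 1500.55 and 1500.66, so the authors had scaled the arrays before deposit. Arrays carry no read depth, and 5 per group limits the precision.

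From these signals log2 was taken. Of 31099 probe sets, 57 were controls, 20826 had 1 gene symbol in the platform annotation, 436 several and 9780 none, and 20758 symbols were brought up to date by Entrez number. The brightest probe set stood for each of 14217 genes, and the brightest 60% (8531 genes, geometric mean signal of at least 469.2) were tested. A group-means model on all 30 arrays was fitted with limma 3.58.1 in R 4.3.3 (eBayes with an intensity trend), with Benjamini-Hochberg adjustment over all genes tested at 0.05, and fitted again with the log2 actin 3'/5' ratio as a covariate. The actin ratio was compared by two-sided exact permutation tests, adjusted over 7 pairs.

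The members and gene lists were chosen with earlier results of these data known. Genes named are the 10 largest called rises and falls per comparison with vehicle and of vehicle over time, all called members where 5 or fewer were called, and a fixed set (the Mrps18 paralogues, Mrpl12, Mrpl58, Mrpl44, Mrps22 and genes with probe sets called in opposite directions). Alternatives were other normalizations, filters, probe set rules and fits, and leaving out each array. A block for the rounds of the running code in the titles was added after seeing the data. Promoter windows came from RefSeq on GRCr8. The fits were tested on simulated data.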

Additional observations from a re-analysis of the deposited data

Results flagged for a closer look

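A single array stood far from the other 4 of its group in 5 of 90 group values checked, where chance gives about 1 in 20. These were a high Mrpl39 signal of 3500.5 at 500 µM and 24 h, a low Mrpl47 signal of 2490.4 at 500 µM and 48 h and a high Mrps27 signal of 1439.5 in vehicle at 48 h. The other 2 were a high log2 actin ratio of 1.757 at 5000 µM and 24 h and a low family median of -0.19 in vehicle at 24 h.

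The effect of 5000 µM differed between 48 h and 24 h by limma's test of the difference for 7 genes. Among the genes shown by array these were Mrpl37 (0.38, adjusted p = 0.00518), Mrpl36 (-0.40, adjusted p = 0.00104), Mrps6 (-0.30, adjusted p = 0.0267) and Mrpl39 (-0.29, adjusted p = 0.0305). The effect of 500 µM differed for 38 genes without the actin ratio and for 0 with it, where 14 had an unadjusted p under 0.05 in limma. Without the ratio the differences were -0.65 for Mrps18c, -0.63 for Mrpl50, -0.49 for Mrps33, -0.42 for Mrps22, -0.37 for Mrps18b, -0.29 for Mrpl36, -0.27 for Mrpl40 and -0.27 for Mrpl49. They were 0.58 for Mrps27 and 0.46 for Mrps2, both read from probe sets that others of the same gene oppose at 500 µM and 48 h.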

How the results depend on the processing

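Over the counts of genes called, 103 of 133 alternatives other than leaving out an array stayed within 1.5 times the count reported with the same direction in the majority, and 1381 of 1550 values of single genes kept direction and side of the threshold. The cause of each change below was not tested. With the actin ratio as a covariate the counts were 0 at 500 µM and 24 h, 0 at 500 µM and 48 h, 22 for 5000 against 500 µM at 24 h (10 higher, 12 lower), 23 at 48 h, 1 for vehicle over time, and 3 and 0 for the differences of the 5000 and 500 µM effects between times. With the sides of the gap as a block they were 4 at 500 µM and 48 h, 21 and 25 for 5000 against 500 µM at 24 h and at 48 h (9 higher and 12 lower at 24 h), 11 for vehicle over time and 6 for the difference at 500 µM. With arrays below the gap alone they were 20 for 5000 µM at 24 h, 0 for 500 µM at 24 h, 14 for 5000 against 500 µM at 24 h (6 higher, 8 lower), 7 for vehicle over time and 3 for the difference at 5000 µM. Arrays above the gap alone, or a fit of the compared groups alone, gave 0 at 500 µM and 24 h. With arrays centred on their medians they were 15 for 5000 against 500 µM at 24 h (5 higher, 10 lower) and 3 for the difference at 5000 µM. With arrays below the gap alone 28.7% of all genes were called for 5000 µM at 24 h and 14.8% for vehicle over time. For the other counts by the gap, by centring and by the compared groups the share of all genes is not given. Those counts therefore do not show whether the family moved differently from all genes. Leaving out each array in turn gave 0 to 2 for 500 µM at 24 h, 15 to 20 for 5000 against 500 µM at 24 h, 19 to 32 for vehicle over time and 5 to 15 for the slope on the ratio. More calls of 5000 against 500 µM at 24 h were then lower than higher without replicate 3 of the 500 µM wells (17) or of the 5000 µM wells (20). The actin ratio difference at 5000 µM and 24 h lay between -0.5017 and -0.3517, and that of vehicle over time between -0.6032 and -0.4789. The first passed the exact permutation test without replicate 1 of the 5000 µM wells or replicate 5 of the vehicle wells, and the second did not without replicate 4 or 5 of the 48 h vehicle wells. The mean of all probe sets turned the sign at 500 µM and 48 h of Mrpl40 (0.0567), Mrpl51 (-0.16), Mrpl57 (-0.0651) and Mrps27 (-0.45), at 5000 µM and 24 h of Mrps27 (0.40) and Mrpl12 (0.0768), at 5000 µM and 48 h of Mrpl12 (0.12), and for vehicle over time of Mrps27 (0.59). The covariate turned Mrps18b (0.0001), Mrps22 (0.0086) and Mrps34 (0.0085) at 500 µM and 48 h. What the rounds of the title code stand for is not given, and the main fit takes no account of them. Arrays of 1 round deviated together at a correlation over 0.1 in 20 of 35 pairs, with a range of -0.32 to 0.43. In 17 of the 35 the array of the same round was the most correlated of the 5 in the other group. As a replicate block, chosen after seeing the data, the rounds gave 1 call for the slope and moved no other count by over 1.5 times. With block and actin ratio together, also chosen after seeing the data, the counts were 19 at 5000 µM and 24 h, 1 at 500 µM and 24 h, 0 at 500 µM and 48 h, 20 and 8 for 5000 against 500 µM at 24 h (8 higher, 12 lower) and at 48 h, 1 for vehicle over time, and 0 for the differences at 5000 and 500 µM. Unadjusted p under 0.05 in limma held for 7, 8 and 5 genes where the count was 0. In the same fit 24.7% of all genes were called at 5000 µM and 24 h. At 500 µM the all-gene shares were 2.25% at 24 h and 0.387% at 48 h. For 5000 against 500 µM they were 29.9% at 24 h and 11.4% at 48 h. They were 1.38% for vehicle over time, and 6.69% and 0.00% for the differences at 5000 and 500 µM.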

Other observations

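Genes of the mitochondrial and integrated stress response mostly fell at 5000 µM and rose or did not pass at 500 µM. At 5000 µM 0 of 13 rose and 9 fell at 48 h (median -0.40), and 2 rose and 9 fell at 24 h (median -0.43). Of all genes 32.6% were called at 48 h and 38.1% at 24 h. With the actin covariate 0 of the 13 rose and 10 fell at 48 h, and 1 rose and 8 fell at 24 h. The all-gene shares called were then 35.5% and 30.5%. In limma 1 of the 13 was higher at 48 h at an unadjusted p under 0.05, with and without the covariate. The hormone gene Fgf21 fell by 1.00 at 48 h and by 1.02 at 24 h on the log2 scale, and at 24 h Gdf15, another secreted stress signal, rose by 1.21. At 500 µM 5 of the 13 rose and 0 fell at 48 h, led by the transcription factor Atf5 (0.72), with 1 rise under the actin covariate. Of all genes 24.0% rose and 18.6% fell in that comparison, and 3.97% were called with the covariate. At 500 µM and 24 h 3 rose and 0 fell, Fgf21 (0.61), Chac1 (0.46) and Ddit3 (0.39), where 2.86% of all genes were called. With the covariate Fgf21 was not called (0.49, adjusted p = 0.0564 in limma), where 2.17% of all genes were.

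Of 15 mitochondrial chaperones and proteases 3 rose and 5 fell at 5000 µM and 48 h, and 4 rose and 6 fell at 24 h, when the protease Lonp1 (-0.61) and the chaperone Hspa9 (-0.49) fell most. The shares called were 53.3% at 48 h and 66.7% at 24 h, against 32.6% and 38.1% of all genes. With the covariate the counts were 3 and 5 at 48 h and 4 and 5 at 24 h, where 35.5% and 30.5% of all genes were called. At 500 µM and 48 h 5 of the 15 rose and 0 fell, led by Lonp1 (0.62) and Clpx (0.43), with 2 rises under the covariate, Clpx among them. The share called was 33.3%, against 42.6% of all genes, and 24.0% of all genes rose. With the covariate 3.97% of all genes were called. Of 21 protein import genes 12 fell and 0 rose at 500 µM and 48 h (median -0.17), led by Timm17a (-0.47). Falls made up 57.1%, against 18.6% of all genes. With the covariate 0 of the 21 were called in limma, where 3.97% of all genes were.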
